A study of Mus musculus with 12 samples.

Results

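Immediate-early transcription factors and Arc are the genes that neurons transcribe within minutes of being stimulated, and 10 of them were followed here through the circadian day in the hippocampus: Fos, Fosb, Junb, Egr1, Egr2, Egr3, Egr4, Npas4, Nr4a1 and Arc. The members were every non-control probe whose gene name on the array was 1 of these names. Each name had 1 probe, and all 10 members were among the 24090 genes tested. The study asked which hippocampal genes follow a circadian rhythm when light cannot drive them. Hippocampi came from 12 adult male wild-type mice kept in constant darkness, each measured on its own 1-colour Agilent array. The animals formed 4 groups of 3 by circadian time. Circadian time (CT) 0 is the start of the subjective day and CT12 the start of the subjective night. The CT0 mice had spent 36 h in darkness, the CT6 mice 42 h, the CT12 mice 48 h and the CT18 mice 30 h, so circadian time and the length of darkness changed together and cannot be told apart. The labels list no drug or stimulus for any mouse, and they do not say which part of the hippocampus was taken.

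A stimulated neuron turns these genes on without first making new protein, because the factors that read them, CREB and the serum response factor with its partners, are already present and are switched on by calcium and kinase signalling. FOS, FOSB and JUNB form AP-1 dimers, the EGR proteins are zinc finger factors, NPAS4 is a neuronal factor induced by calcium entry, and NR4A1 is an orphan nuclear receptor. Arc is not a transcription factor: its messenger RNA travels to dendrites, and its protein takes part in removing AMPA receptors from synapses. In the hippocampus the messages are short-lived, and they are widely used as marks of recent activity, such as exploration, learning or seizure.

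CREB binds the letters TGACGTCA or the shorter TGACG, and the serum response factor binds a CArG box. Because the members are known to share these upstream factors, stretches of their promoters are shown. They are RefSeq sequence on build GRCm38.p6 and lie before the annotated start, with each TGACG, or CGTCA where the motif lies on the other strand, in capitals. RefSeq promoters were at hand for 7 members, and none was used for Egr1, Egr3 and Arc.
Fos, chr12:85473746-85473843, plus strand: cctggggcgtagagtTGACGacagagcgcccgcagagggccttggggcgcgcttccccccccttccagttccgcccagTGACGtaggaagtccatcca
Fosb, chr7:19310086-19310120, minus strand: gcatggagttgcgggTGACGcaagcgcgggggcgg
Junb, chr8:84978835-84978869, minus strand: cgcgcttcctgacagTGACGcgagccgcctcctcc
Egr2, chr10:67537743-67537833, plus strand: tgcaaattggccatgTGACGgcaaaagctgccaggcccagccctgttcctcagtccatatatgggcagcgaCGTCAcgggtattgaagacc
Egr4, chr6:85513679-85513781, minus strand: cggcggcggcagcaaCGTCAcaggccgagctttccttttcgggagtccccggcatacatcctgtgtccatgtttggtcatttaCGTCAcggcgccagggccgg
Npas4, chr19:4990121-4990165, minus strand: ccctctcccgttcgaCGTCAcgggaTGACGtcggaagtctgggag
Nr4a1, chr15:101266598-101266825, plus strand: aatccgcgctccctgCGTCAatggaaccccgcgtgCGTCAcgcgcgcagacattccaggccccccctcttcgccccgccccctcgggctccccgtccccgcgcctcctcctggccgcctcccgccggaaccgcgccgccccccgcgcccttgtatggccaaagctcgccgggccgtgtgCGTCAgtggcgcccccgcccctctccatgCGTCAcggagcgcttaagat

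In the window from 250 bases before to 50 bases after the start, TGACG on either strand was present in all 7 members with a promoter, and in 9 of their 11 listed starts. Egr2 gave 5 of these starts, and 3 of the 5 held it. Of all 32851 promoters of the same length, 20.8% held it, and of their 27025 genes 23.0% did. In Fos the copies began 129 and 66 bases before the start, in Npas4 179 and 169 bases, and Nr4a1 held 4 copies. The full TGACGTCA, which contains TGACG on both strands, was in 0 of the 7 members, in 2.03% of genes and in 1.79% of promoters. A CArG box was found in Egr2 only among the 7, 72 bases before the start with the letters ccatatatgg. It was found in 1.81% of genes and 1.63% of promoters. These matches describe the letters in the window and say nothing about what was bound in these mice. Their part in the levels of the members was not tested.

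Values are given as the log2 signal of a probe minus the 75th percentile of its array, so a value of 0 is the level of a fairly bright probe and 1 unit is a 2-fold step. Levels of different probes are not comparable, and each gene was compared only with itself. All members were well above background on all 12 arrays, apart from Egr2 and Egr3, which were on 11 and failed on CT12 mouse 11. The probes lie, on build mm9, at chr12:86817900-86817959 for Fos, chr15:74499592-74499651 for Arc and chr10:67004798-67004857 for Egr2. Those of Fosb, Junb and Egr3 lie at chr7:19888168-19888227, chr8:87501881-87501940 and chr14:70479222-70479281, and those of Egr4, Npas4 and Nr4a1 at chr6:85461153-85461212, chr19:4984356-4984415 and chr15:101105071-101105130. The array files give no exon or untranslated region for them.

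The library labelled CT12 mouse 11 went against its label, and results are therefore given with and without it. Over all genes it correlated with other libraries at 0.945 to 0.965, against 0.984 to 0.995 among the other 11, where genes are no replicates. Relative to each gene's mean over the 12 libraries, the 8 excitatory neuron markers had a median of -4.00 in it, against -0.24 to 0.54 in the others, the 6 CA1 pyramidal cell markers -3.01, against -0.13 to 0.60, and the 9 dentate granule cell markers -1.54, against -0.32 to 0.57. The 7 measured cerebellum markers had a median of 4.62, against -0.77 to -0.01. Choroid plexus markers, 9 of 10 measured, had medians of 1.87 to 3.97 in CT0 mouse 1, CT6 mouse 7, CT12 mice 10 and 11 and CT18 mouse 14, against -2.27 to -1.87 in the remaining libraries. In the other 11 libraries the markers of excitatory neurons, dentate granule cells, CA1 and CA3 pyramidal cells had list medians between -0.32 and 0.60. CT12 mouse 10 had all 8 excitatory neuron markers below their means (median -0.243, against 0.047 to 0.54 in the 10 libraries other than CT12 mice 10 and 11), and its 7 thalamus markers had a median of 1.22, against -0.41 to 0.12 in the others. The array of CT0 mouse 3 had 77.1% of its spots well above background, and the other 11 had 59.3% to 67.1%. Each of the 3 slides held 1 array per time, always at the same position for a time, so effects of position and of time cannot be told apart.

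No member passed a test for circadian time over the 12 libraries or without CT12 mouse 11, and mice of the same time differed widely in most members. No member passed an adjusted p of 0.05 in the limma F test over the 4 times (adjusted p 0.522 to 0.996), where 0.178% of all genes did. None passed the test for a 24-h rhythm (adjusted p 0.532 to 0.957), where 0.0706% did. The p-values measure the spread between these mice, which the labels present as separate animals. In whole hippocampal tissue, fewer cells expressing a gene and less RNA per cell cannot be told apart. At unadjusted p under 0.05 the count was again 0 of 10 in both tests, against 10.6% and 9.72% of all genes. With CT12 mouse 11 left out, no member passed the F test or the rhythm test either, where 0.245% and 0.282% of genes did. Arc was then 1 member under an unadjusted p of 0.05 in each, at 0.0361 (adjusted p 0.361) and 0.0108 (adjusted p 0.222), against 12.3% of genes in both tests. With CT0 mouse 3 left out instead, Fos was the 1 member under an unadjusted p of 0.05 in each. Its F test p was 0.0269 (adjusted p 0.476), against 9.23% of genes under 0.05. Its rhythm test p was 0.0105 (adjusted p 0.362), against 9.07% of genes. A p that misses the threshold does not show that a level stayed the same, and the intervals below show how large a change these mice leave possible.

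**Figure D1:**
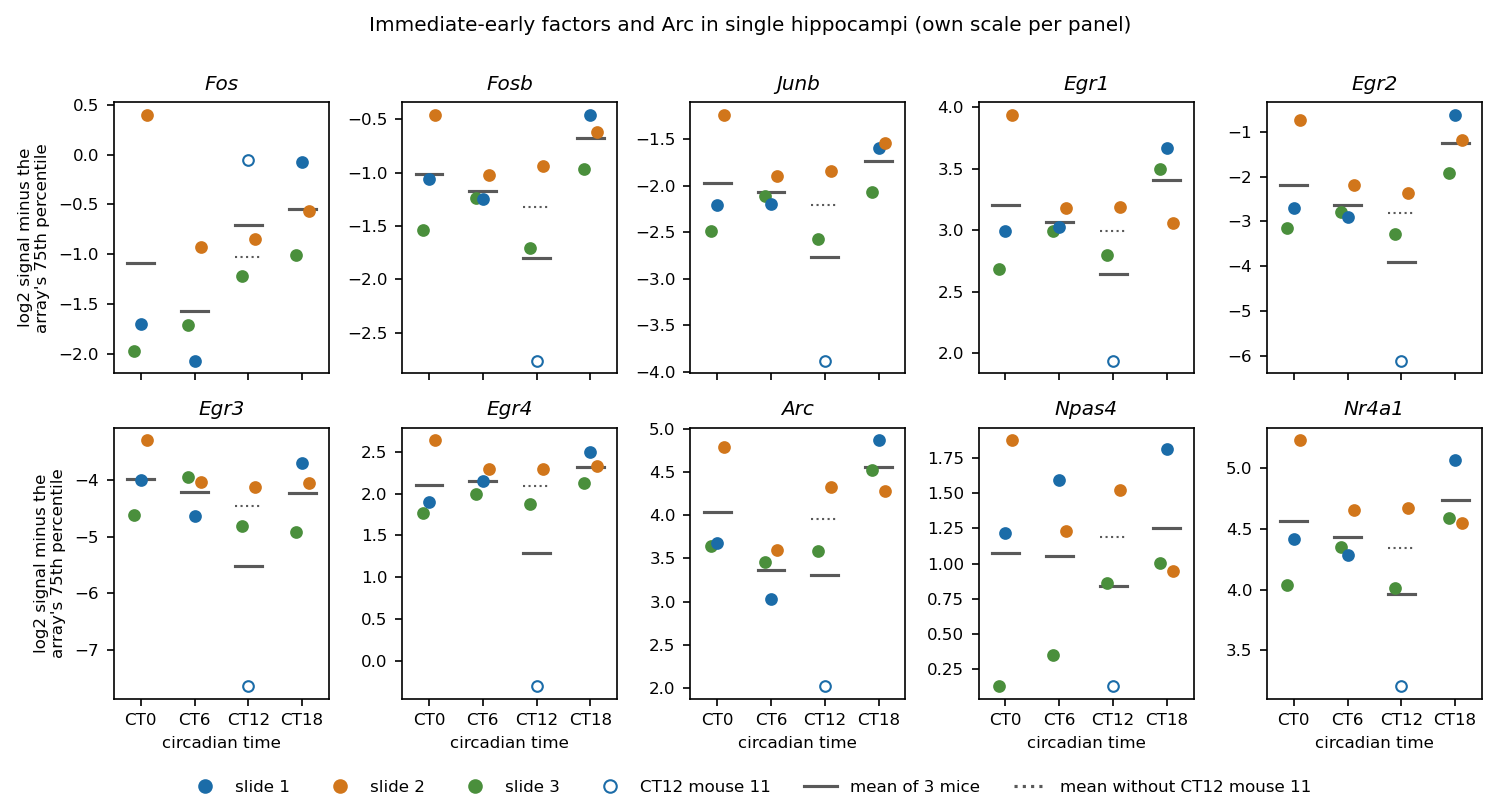
Log2 signal minus the array's 75th percentile (y axis) by circadian time (x axis), 1 point per mouse, coloured by slide, with the mean of 3 mice as a line and the mean without CT12 mouse 11 dotted. CT0 mouse 3 lies above the other CT0 mice in all 10 panels, and CT12 mouse 11, the open point, is the lowest library in 8.

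Fos, which encodes the AP-1 partner most used as an activity marker, had values of -1.97, -1.70 and 0.40 at CT0, -1.71, -2.07 and -0.93 at CT6, -1.22, -0.06 and -0.85 at CT12, and -1.01, -0.07 and -0.57 at CT18. The 3 highest libraries thus came from 3 different times (CT0 mouse 3, CT12 mouse 11 and CT18 mouse 15), and the range within CT0, 2.38, was wider than any difference between time means. Its probe was printed in 10 spots per array, whose SD within an array was 0.03 to 0.10. That SD covers differences between spots of 1 array only, not those between arrays or samples. Fos averaged -1.09 ± 1.30 at CT0, -1.57 ± 0.59 at CT6, -0.71 ± 0.59 at CT12 and -0.55 ± 0.47 at CT18 (SD, n = 3). The CT12 mean was -1.03 when mouse 11 was left out.

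Fosb encodes an AP-1 protein whose splice form delta-FosB is known to persist after repeated stimulation. It had -1.53, -1.06 and -0.46 at CT0, -1.24, -1.25 and -1.03 at CT6, -1.71, -2.76 and -0.94 at CT12, and -0.97, -0.46 and -0.62 at CT18. All CT18 mice were above all CT6 mice, while the ranges of the CT0 and CT12 mice overlapped both. Junb, a JUN family partner of FOS, had -2.48, -2.21 and -1.24 at CT0, -2.11, -2.20 and -1.90 at CT6, -2.57, -3.88 and -1.84 at CT12, and -2.07, -1.60 and -1.54 at CT18. Its ranges overlapped in every pair of times.

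Among the EGR factors, Egr1, which is induced by synaptic stimulation that leads to long-term potentiation, had 2.68, 2.996 and 3.94 at CT0, 2.99, 3.03 and 3.18 at CT6, 2.79, 1.94 and 3.19 at CT12, and 3.50, 3.67 and 3.06 at CT18. The CT6 mice lay within 0.19 of each other and the CT0 mice within 1.26. Egr2, also known for its role in myelinating Schwann cells, had -3.14, -2.70 and -0.74 at CT0, -2.79, -2.91 and -2.20 at CT6, -3.27, -6.10 and -2.37 at CT12, and -1.92, -0.62 and -1.19 at CT18. Every CT18 value was above every CT6 and CT12 value, and CT0 mouse 3 was the only mouse of another time at the CT18 level. The value of CT12 mouse 11 was not well above background, so it stands only as a bound.

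Egr3, a close relative of Egr1, had -4.62, -4.01 and -3.30 at CT0, -3.95, -4.64 and -4.04 at CT6, -4.82, -7.63 and -4.12 at CT12, and -4.92, -3.71 and -4.05 at CT18, with CT12 mouse 11 again not well above background. Egr4, the fourth EGR gene, had 1.77, 1.90 and 2.64 at CT0, 1.99, 2.16 and 2.30 at CT6, 1.88, -0.31 and 2.30 at CT12, and 2.13, 2.50 and 2.34 at CT18. Both genes overlapped between all times. The CT12 mean of Egr4 was 2.09 without mouse 11, against 1.29 with it.

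Npas4, which in neurons controls genes of inhibitory synapses, had 0.13, 1.22 and 1.88 at CT0, 0.35, 1.59 and 1.23 at CT6, 0.86, 0.13 and 1.52 at CT12, and 1.01, 1.82 and 0.94 at CT18. Its 4 means, 1.08 ± 0.89, 1.06 ± 0.64, 0.84 ± 0.70 and 1.26 ± 0.49 (SD, n = 3), lay closer together than mice of any 1 time. Nr4a1 had 4.04, 4.41 and 5.23 at CT0, 4.36, 4.29 and 4.66 at CT6, 4.01, 3.20 and 4.68 at CT12, and 4.59, 5.07 and 4.55 at CT18. Its ranges overlapped between all times.

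Arc, the effector at synapses, had 3.64, 3.68 and 4.78 at CT0, 3.46, 3.03 and 3.60 at CT6, 3.59, 2.02 and 4.33 at CT12, and 4.53, 4.87 and 4.29 at CT18. All CT6 mice were below all CT0 mice and below all CT18 mice, whereas CT12 ran from the lowest value of all to one within the CT18 values. The means were 4.04 ± 0.65 at CT0, 3.36 ± 0.29 at CT6, 3.31 ± 1.18 at CT12 and 4.56 ± 0.29 at CT18 (SD, n = 3), and 3.96 at CT12 without mouse 11. The fitted 24-h curve of Arc had an amplitude of 0.70 with a peak at 20.1 h (adjusted p 0.532).

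By mean, CT18 was the highest time for 9 of the 10 members, Egr3 being highest at CT0, and for 25% of all genes. CT12 was the lowest for 9, Fos being lowest at CT6, and for 36.4% of all genes. When CT12 mouse 11 was left out, CT18 was highest for 9 (26.2% of all genes), and the lowest time was CT12 for 7 (30.3%) and CT6 for 3 (20.2%). The CT12 means then rest on mice 10 and 12, and the markers of mouse 10 stood apart as given above; their part in the order was not tested. For no member did times that were neighbours in this order, or any other pair of times, differ at an adjusted p under 0.05 over the 12 libraries or without CT12 mouse 11.

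The comparison of opposite times, CT18 against CT6, gave the following. Arc was 1.20 ± 0.52 higher at CT18 on the log2 scale (SE, 95% interval 0.04 to 2.35), a 2.29-fold difference with an unadjusted p of 0.0433 and an adjusted p of 0.569 in limma. Egr2 differed by 1.39 (interval -0.60 to 3.38), Fos by 1.02 (-0.295 to 2.34) and Fosb by 0.49 (-0.42 to 1.40). No member passed, against 0.133% of all genes, and Arc was the 1 member under an unadjusted p of 0.05, against 8.32%. The median of the members was 0.34, and 9 of 10 were above 0, against a median of -0.016 and 46.2% above 0 over all genes. Fosb, Egr2 and Arc had all 3 CT18 mice above all 3 CT6 mice, a pattern that 11.3% of all genes showed. Within slides, where 1 CT18 array can be set against 1 CT6 array, 6 members were higher at CT18 on all 3 slides, 3 on 2 slides and Egr3 on 1. The share of all genes was not taken for these slide counts, and the members varied together between mice. The slide counts therefore only describe these members. The Arc differences on slides 1 to 3 were 1.84, 0.69 and 1.07.

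Leaving out CT12 mouse 11 changes none of these differences, since it belongs to neither time, but narrows their intervals. Arc then had an interval of 0.45 to 1.94, with an unadjusted p of 0.00547 and an adjusted p of 0.13, and Egr2 had an interval of 0.05 to 2.73, with an unadjusted p of 0.044 and an adjusted p of 0.341. These were the 2 members under an unadjusted p of 0.05, against 13.8% of all genes, and no member passed the adjusted threshold, against 1.25%. Egr3 (-0.01) and Npas4 (0.20) were the members whose sign depended on the setting.

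For CT18 against CT12 all 10 members were higher at CT18, against 50.6% of all genes, with a median of 1.03, against 0.0038 over all genes. Without CT12 mouse 11 the median was 0.443, against -0.017, and 10 of 10 were above 0, against 47.0% of all genes. Egr2, whose CT12 values include 1 array not well above background, was 2.67 ± 0.90 higher (SE), Arc 1.25 ± 0.52 and Fosb 1.12 ± 0.41, with unadjusted p of 0.0136, 0.0365 and 0.0202 and adjusted p of 0.203, 0.273 and 0.227. No member passed, against 0.419% of genes, and 3 were under an unadjusted p of 0.05, against 16.6%. When CT12 mouse 11 was left out, these differences came to 1.58 for Egr2, 0.60 for Arc and 0.64 for Fosb. Egr2 was then the 1 member under an unadjusted p of 0.05 (0.0415, adjusted p 0.333), against 13.8% of genes, and none passed, against 0.498%. Egr2 was also the 1 member with all CT18 mice above all CT12 mice, which 10.7% of genes showed. Its difference was 1.19 on slide 2 and 1.35 on slide 3, and no exact one is given for slide 1, where CT12 mouse 11 was not well above background. Leaving out CT12 mouse 12 instead, so that CT12 held mice 10 and 11, gave Fosb a difference of 1.55 with an adjusted p of 0.0458 in limma, and 5.23% of all genes passed. It was the 1 member that passed there. The low levels of excitatory neuron markers in CT12 mouse 11 moved with this result, and their part in it was not tested.

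**Figure D2:**
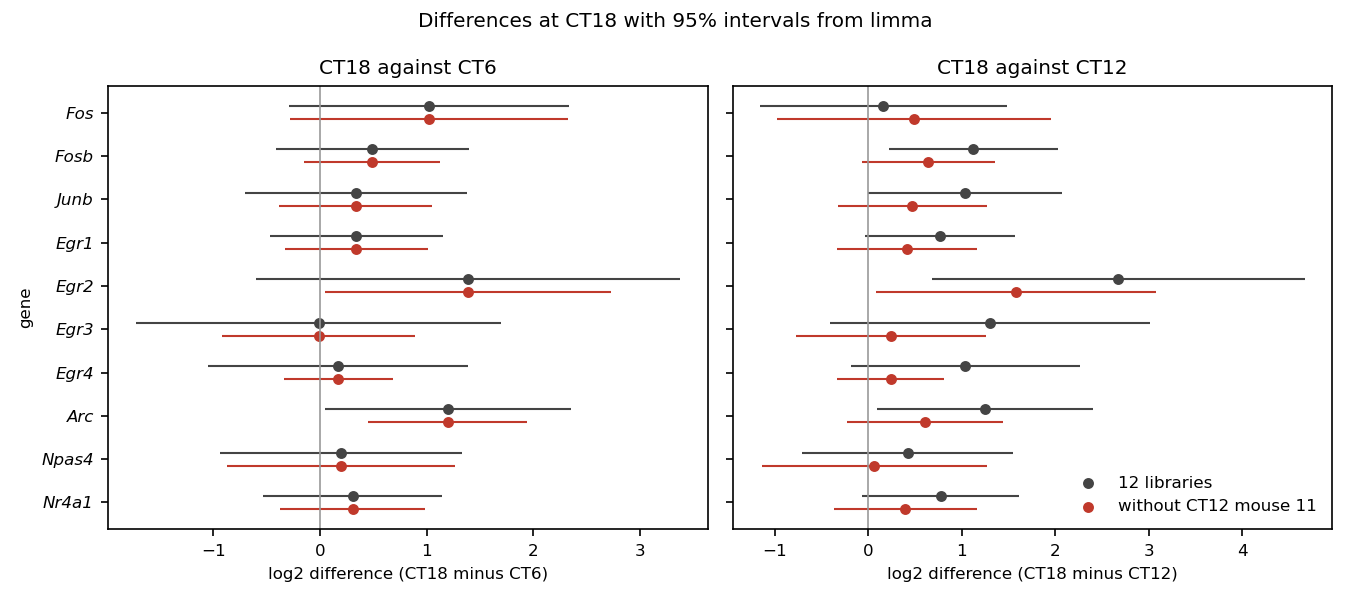
Log2 difference (x axis, CT18 minus the other time) of each member (y axis) with its 95% interval from limma, in black over 12 libraries and in red without CT12 mouse 11. The interval of Arc lies above 0 in CT18 against CT6 in both fits, and the differences against CT12 shrink without CT12 mouse 11 for every member except Fos.

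The other pairs held no member under an adjusted p of 0.05. For CT12 against CT0 the median of the members was -0.75 (-0.02 over all genes) and 0.0623% of genes passed. Without CT12 mouse 11 the median was -0.215, with -0.63 for Egr2 (adjusted p 0.864) and -0.49 for Egr3 (adjusted p 0.838), which are given only without the array where they were not well above background. For CT12 against CT6 the median was -0.55 with 1 of 10 above 0, against 46.7% of all genes, and 0.0208% of genes passed. Without CT12 mouse 11 that median was -0.081 with 3 of 10 above 0, against 48.2% of all genes. CT6 against CT0 had a median of -0.145, and CT18 against CT0 a median of 0.23, and 0% of genes passed in either. Arc alone had all CT6 mice below all CT0 mice, as 5.07% of genes did, with a difference of -0.67. The medians of CT6 against CT0 and CT18 against CT0 moved with CT0 mouse 3. With that library, 1 and 9 of 10 members were above 0, against 51.0% and 48.7% of all genes. Without it, CT6 against CT0 had a median of 0.248, with 9 of 10 members above 0, against 57.8% of all genes. CT18 against CT0 then had 0.596, with 10 of 10 above 0, against 54.8% of all genes. Without CT12 mouse 11 the shares of genes passing were 0.0291% for CT12 against CT0, 0.0249% for CT12 against CT6, 0.0208% for CT18 against CT0 and 0% for CT6 against CT0, with no member among them. These comparisons share groups with each other, so their values are not independent.

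The members differed widely between mice of the same time. Over the 12 libraries the residual SD of the members ran from 0.49 for Egr1 to 1.23 for Egr2, with a median of 0.70, against a median of 0.22 over all genes. That placed them between percentiles 85.4 and 99.0 of all genes. Without CT12 mouse 11 the SDs were 0.305 for Egr4 to 0.831 for Egr2, against 0.17 over all genes, at percentiles of 78.5 to 98.4. Fos, at 0.81, kept its SD with or without that library, whereas Egr4 had 0.748 with it and 0.305 without it. Without CT0 mouse 3 as well, the SDs were 0.19 to 0.59 and the percentiles 57.9 to 96.3, against a median of 0.17 over all genes. The percentiles are a description, and no test was made of them.

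**Figure D3:**
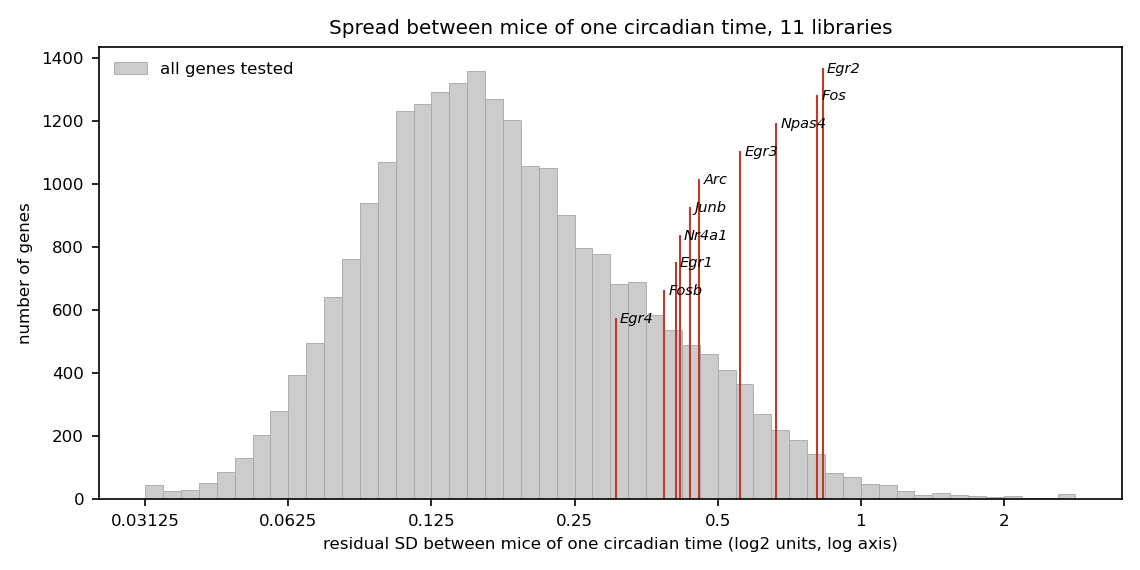
Number of genes (y axis) by residual SD between mice of the same circadian time (x axis, log2 units on a log axis) in the 11 libraries without CT12 mouse 11, with each member marked by a red line whose height has no meaning. The members lie between 0.305 (Egr4) and 0.831 (Egr2), to the right of the median of all genes at 0.17.

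Taken by time, the spread was as follows. At CT0 the SDs of the members had a median of 0.66 (0.47 for Egr4 to 1.30 for Fos), against 0.15 over all genes. At CT6 the median was 0.245, with Egr1 at 0.10 and Npas4 at 0.64, against 0.12 over all genes. The SD at CT0 was larger than that at CT6 in all 10 members and in 62.9% of all genes. Without CT0 mouse 3 the CT0 median was 0.244, against 0.138 over all genes, and the SD was larger at CT0 in 6 members, not in Fos, Egr2, Egr4 and Arc, and in 56.5% of all genes. CT12 had a median of 0.98, against 0.28 over all genes, which came to 0.481, against 0.156, without CT12 mouse 11. CT18 had one of 0.305, against 0.145. With 3 mice per time, or 2 where 1 was left out, such SDs are themselves imprecise.

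At CT0, mouse 3 was above both other mice in all 10 members, which held for 35.8% of all genes, and above their mean by 0.81 for Egr4 to 2.24 for Fos, a 4.72-fold difference. Egr2 followed with 2.18 (4.55-fold), and the differences of the members lay between percentiles 93.1 and 99.5 of all genes. Of the 10 members, 7 had their highest value of all 12 libraries in this mouse, against 13.9% of all genes, and the other 3 (Fosb, Egr2 and Arc) in CT18 mouse 15, against 5.43% of all genes. The share of spots well above background was also highest on the array of CT0 mouse 3, as given above, and its part in the result was not tested. The excitatory neuron and dentate granule cell markers of this mouse had medians of 0.37 and 0.20, within the range of the other libraries, and its choroid plexus markers -1.87.

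CT0 mouse 1 lay below both other CT0 mice in all 10 members, which held for 45.2% of all genes. It had the highest choroid plexus markers (median 3.97) and a local background of 100, against 25 to 37 on the other arrays. The part of either in the low values was not tested. CT18 mouse 15 was above both other CT18 mice in 9 of 10 members (38.8% of all genes), by up to 0.94 for Egr2, and CT6 mouse 7 above both others in 8 (22.8%), by up to 0.97 for Fos. Choroid plexus markers were high in CT6 mouse 7 and low in CT18 mouse 15, and their part in these values was not tested. By slide, CT0 mouse 3, CT6 mouse 7 and CT12 mouse 12 were on slide 2 and CT18 mouse 15 was on slide 1.

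CT12 mouse 11 was lowest of all 12 libraries in 8 members, against 30.3% of all genes. It was below both other CT12 mice in 9, against 43.6%, but above both in Fos. Its Fos value of -0.06 lay near the highest, while Egr2 and Egr3 were not well above background there. Fos and the other 9 members thus parted in 1 library, the one whose excitatory neuron markers were low. Its interneuron markers had a median of -0.1, against -0.165 to 0.205 in the others, with single markers from -2.75 to 3.05.

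**Figure D4:**
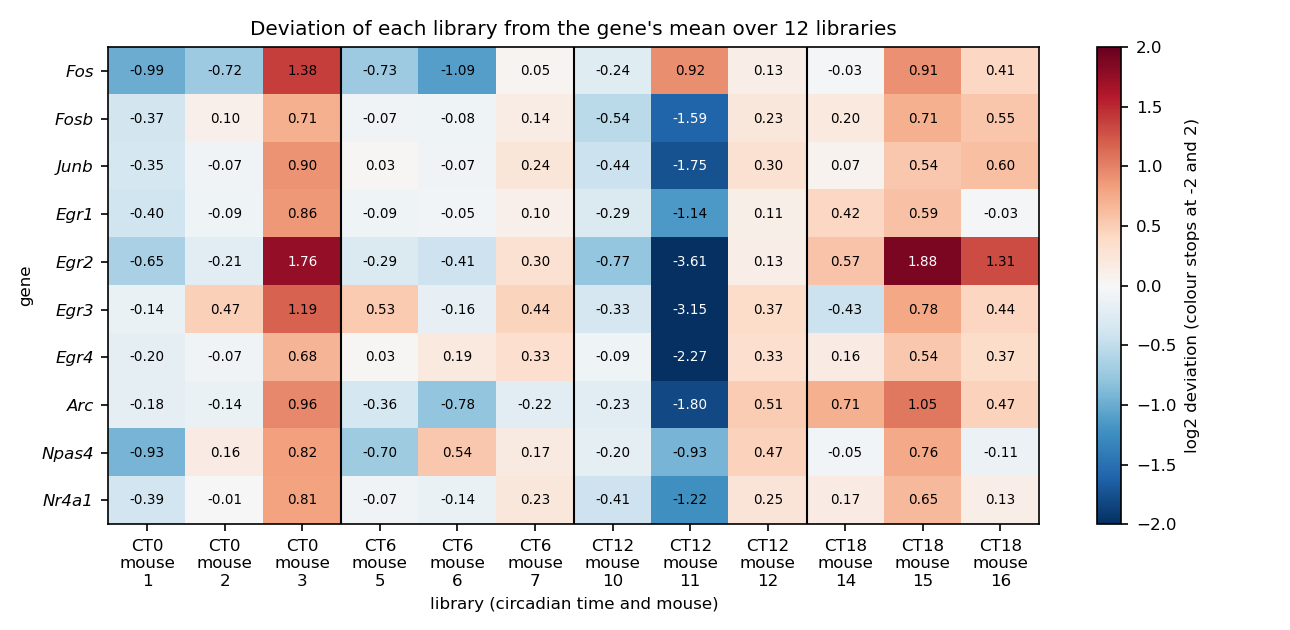
Log2 deviation of each library (x axis) from the gene's mean over the 12 libraries for each member (y axis), red above and blue below the mean, with colours ending at -2 and 2. CT0 mouse 3 is above the mean in all 10 rows (0.68 to 1.76), and CT12 mouse 11 is below it in all but Fos, where it is 0.92 above.

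The members were high and low in the same mice. To take circadian time out, the mean of each time was subtracted, and the deviations were correlated over mice for all 45 pairs of members, with exact two-sided permutation of mice within their time and Benjamini-Hochberg adjustment over the 45 pairs. Over 12 libraries the 36 pairs without Fos had Pearson's r of 0.628 to 0.985 (median 0.934) and Spearman's rho of 0.608 to 0.979. Of the 45 pairs, 34 had an adjusted p under 0.05 by r and 27 by rho, and none of them held Fos. The 9 pairs with Fos had r of 0.00845 to 0.424 and exact permutation p of 0.341 to 0.973 (adjusted p 0.415 to 0.973). When the 2 mice farthest from the median of the first gene of a pair were left out, the pairs without Fos had r of 0.457 to 0.966 and those with Fos 0.277 to 0.61.

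Without CT12 mouse 11, Fos varied with the other members: its 9 pairs had r of 0.641 (with Npas4) to 0.966 (with Egr2), a median of 0.885 and rho of 0.582 to 0.927. For Fos with Egr2 the exact permutation p was 0.00231, the smallest that 432 permutations can give, and the adjusted p 0.0208. In all, 25 of 45 pairs had an adjusted p under 0.05 by r and 26 by rho, among them 7 of the 9 pairs with Fos by either measure. The 36 pairs without Fos had r of 0.545 (Egr3 with Npas4) to 0.976 (Egr2 with Egr4). Leaving out the 2 farthest mice gave r of 0.257 to 0.941, positive in all 45 pairs. Npas4 was the member least like the others apart from Fos over 12 libraries, with a median r of 0.729, and the least like them over 11, with 0.735.

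CT0 mouse 3 also bore on this covariation. Without it as well, r was still above 0 in all 45 pairs (0.292 to 0.952, median 0.714), but 0 pairs had an adjusted p under 0.05 by r or rho. The lowest adjusted p was 0.0893 and the smallest p that 144 permutations can give is 0.00694. With slide means removed and CT0 mouse 3 kept, over the 11 libraries without CT12 mouse 11, r was 0.224 to 0.99 and 27 pairs had an adjusted p under 0.05 by r and 13 by rho, with a permutation that did not take slides into account. The members were known beforehand as genes induced together, and the counts describe these 10 genes only.

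**Figure D5:**
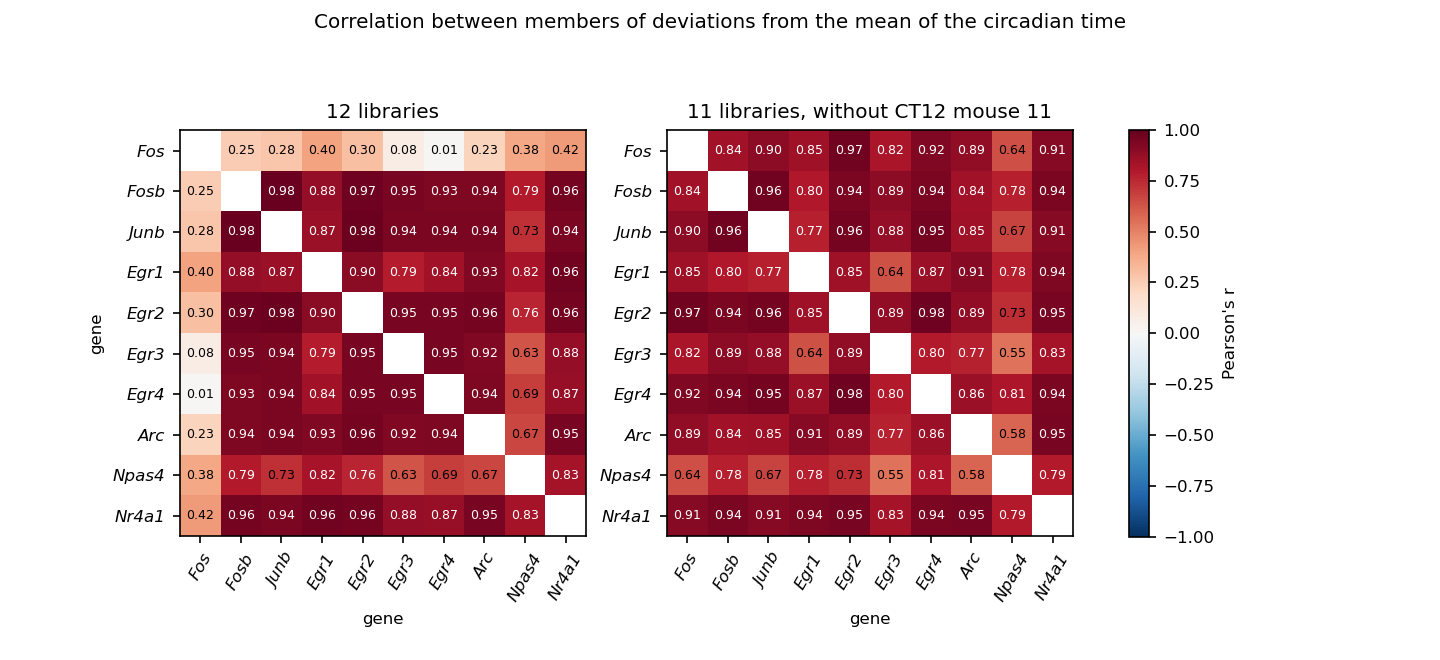
Pearson's r between members (both axes) of deviations from the mean of the circadian time, with 12 libraries on the left and without CT12 mouse 11 on the right. The Fos row runs from 0.00845 to 0.424 on the left and from 0.641 to 0.966 on the right.

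Against all other genes the members' r stood as follows. Egr2 had a median r of 0.938 with the other members in the 11 libraries, a level that 0.112% of genes outside the list reached with it, and a median of 0.16 with all those genes. Nr4a1 had 0.935 (0.108% of genes) and Fos 0.885 (0.577%). Npas4 had 0.735, which 8.75% of genes reached. Over 12 libraries, with CT12 mouse 11 included, these shares ran from 0.0332% for Egr2 and Nr4a1 to 4.17% for Npas4 and 29.2% for Fos. The 95th percentile of a member's r with all those genes was then 0.648 for Fos to 0.889 for Egr4. Over the 11 libraries it was 0.673 for Egr3 to 0.796 for Npas4. These shares are a description across genes, which share libraries and are not independent.

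Genes outside the list were ranked by how their values correlated with the mean of the members, each member first centred on its own mean. The 8 highest were taken. Circadian time was not taken out here, unlike in the pairs above. Over 12 libraries those with a RefSeq symbol were Ell2 (r 0.965), a transcription elongation factor, Cdc6 (0.937), a licensing factor of DNA replication, Ier5 (0.935), itself an immediate-early gene, and Myc (0.934), a growth-related transcription factor. Over 11 libraries they were Cdc6 (0.932), Ell2 (0.917), Btg2 (0.909), an antiproliferative immediate-early gene, Htr1f (0.889), a serotonin receptor, and Ier2 (0.888), a further immediate-early gene. The rest of each 8 were transcripts without a RefSeq symbol. The median r over all genes was 0.134 over 12 libraries and 0.115 over 11, and Cdc6 and Ell2 were among the 8 in both.

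Related genes of the pathway were taken in 5 lists, to be read against the shares of all genes that passed each test, such as 0.178% for the F test and 0.419% for CT18 against CT12. Of the other AP-1 genes, 3 of 4 were measured and none passed any test. Jun, the classical partner of FOS, had means of 4.61 ± 0.07 at CT0, 4.42 ± 0.09 at CT6, 4.12 ± 0.29 at CT12 and 4.60 ± 0.08 at CT18 (SD, n = 3). Its F test adjusted p was 0.362, and 0.292 without CT12 mouse 11. The SD of Jun at CT0 was well under those of the 10 members. Fosl2 had an F test adjusted p of 0.568 and Jund, which is expressed constantly in many cells, 0.657. Among the NR4A paralogs and the EGR corepressors, all 4 were measured and none passed. Nr4a2 had means of 3.38 at CT0, 3.63 at CT6, 2.23 at CT12 and 3.57 at CT18. Its F test adjusted p was 0.441, and 0.552 without CT12 mouse 11. Its SD was 1.09 at CT12, where that library is included, against 0.22 to 0.49 at the other times. Nr4a3 had an adjusted p of 0.603, and Nab1, a corepressor of the EGR proteins, 0.796.

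The factors that act upstream, 17 of 17 measured, held 1 call: Mef2d, an activity-dependent factor of neurons, was 0.59 ± 0.10 higher at CT18 than at CT12 (SE, adjusted p 0.0476), and 0.50 without CT12 mouse 11 (adjusted p 0.0549). Crem, a CREB relative, and Crtc1, a CREB coactivator, had F test adjusted p of 0.283 and 0.372. The median difference of the list at CT18 against CT6 was 0.06, with 9 of 17 above 0, against 46.2% of all genes.

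Other immediate-early and feedback genes, 27 of 28 measured, had 2 that passed the F test. Maff, a small MAF factor that lacks an activation domain, averaged -4.81 at CT0, -5.54 at CT6, -3.74 at CT12 and -4.25 at CT18 (adjusted p 0.0393, and 0.0539 without CT12 mouse 11). It was 1.80 ± 0.21 higher at CT12 than at CT6 (SE, adjusted p 0.0444, and 0.0913 without CT12 mouse 11). Arl4d, a small GTPase, averaged -0.52 at CT0, -0.70 at CT6, 0.88 at CT12 and -0.18 at CT18 (adjusted p 0.0473, and 0.0786 without that library). Ier3 had an adjusted p of 0.267. Maff and Arl4d, which passed the F test over the 12 libraries but not without CT12 mouse 11, were highest at CT12. That was the time where 9 of the 10 members had their lowest mean, or 7 without CT12 mouse 11. Maff was 1.28 higher at CT18 than at CT6, with an adjusted p of 0.0554 over 12 libraries and 0.0304 without CT12 mouse 11. Dusp6, a phosphatase that turns off ERK, was 0.68 higher, with an adjusted p of 0.534 over 12 libraries and 0.0314 without CT12 mouse 11. In that comparison 0.133% of all genes passed over 12 libraries and 1.25% without CT12 mouse 11.

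Among activity-induced effectors, 14 of 14 measured, Inhba, which encodes a subunit of activin, was the 1 that passed the F test. It averaged -0.26 ± 0.07 at CT0, -0.54 ± 0.15 at CT6, -0.83 ± 0.21 at CT12 and 0.27 ± 0.13 at CT18 (SD, n = 3, adjusted p 0.0393, and 0.0161 without CT12 mouse 11). It was 1.11 ± 0.13 higher at CT18 than at CT12 (SE, adjusted p 0.0165, and 0.0173 without that library). Against CT6 it was 0.81 ± 0.13 higher at CT18 (SE, adjusted p 0.052, and 0.0127 without that library). Bdnf, a neurotrophin induced by activity, had its lowest mean at CT12 (0.13, with CT12 mouse 11 included) and its highest at CT18 (1.03). The F test adjusted p of Bdnf was 0.21, and 0.227 without CT12 mouse 11. Vgf, a secreted neuropeptide precursor, had an F test adjusted p of 0.483. At CT18 against CT6 the list had a median difference of 0.115 with 13 of 14 above 0, against 46.2% of all genes. For scale, the clock gene Nr1d1, which encodes REV-ERB alpha, differed by -1.11 ± 0.11 at CT18 against CT6 (SE, adjusted p 0.00578), with an SD of 0.06 to 0.15 within a time. Arc differed by 1.20 ± 0.52 in that comparison (SE, adjusted p 0.569 with limma), with an SD of 0.29 to 1.18 within a time. The 1.18 was at CT12 with mouse 11 included, a time outside the comparison. At CT6 and CT18 the SD of Arc was 0.29 each, against 0.095 and 0.115 for Nr1d1. Without CT12 mouse 11 the SE of the Arc difference was 0.33, with an adjusted p of 0.13 in limma, against 0.00261 for Nr1d1.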

How the data were processed

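Total RNA was labelled with Cy3 by a low-input amplification and hybridised to 1-colour Agilent arrays, 1 mouse each. Per the file headers, the scans were read with Agilent Feature Extraction 10.7.3.1, which corrected each spot's intensity for background within its array and left arrays unscaled. Mean and local background signals are intensities too, per the file headers, and the flags of a spot (well above background, outlier, saturated) are other values of 0 or 1. The deposited value table holds log2 values whose making is not given in the sources used here. Each of its columns correlated at 0.990 or more with its own array, and it served as an alternative.

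From the processed intensities, log2 values were taken and scaled by subtracting the 75th percentile of the non-control probes of each array, with outlier spots left out and spots of a probe averaged. Of 55681 probes, 33966 passed by being well above background on every array of some time, and a gene was represented by its brightest probe. Names came from RefSeq by accession (26582 probes), symbol (2602) or synonym (492), and 26005 kept the array's name. Of the 24090 genes tested, 16094 had a RefSeq symbol, and the rest were transcripts or probes under the array's name. Shares and percentiles over all genes include both kinds. R 4.3.3 with limma 3.58.1 fitted 1 mean per time to all 24090 genes, for the F test, a 24-h cosine and sine, and 6 pairs of times, with Benjamini-Hochberg adjustment over all genes in each. The procedure was also run on simulated data with independent normal noise for each gene. These held no odd library, slide effect or correlation between genes, so they do not show how the tests behave with those. Correlations used Python 3.11.15.

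The members and lists were chosen with earlier results of these data known. The members were named by rule, with up to 3 genes per list by smallest F test p, every list gene that passed, 8 genes most like the members, and Nr1d1 for scale. For arrays, their number limits the precision: 3 mice per time.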

Additional observations from a re-analysis of the deposited data

How the results depend on the processing

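No member passed an adjusted p of 0.05 in any of the 8 tests under slide as a block, the deposited table, normexp, median centring, quantile normalization, probe means, other filters or another variance model. Separate fits of the arrays compared covered only the 6 pairs of times, and no member passed there either. The filter for probes well above background on all 12 arrays left out Egr2 and Egr3, so these were not tested under it. Leaving out each library in turn gave 0 or 1 member in CT18 against CT12 and 0 in the other 7 tests: without CT12 mouse 12, which leaves mice 10 and 11, Fosb had an adjusted p of 0.0458. The difference of Egr3 at CT18 against CT6, -0.01, turned to 0.0619 under quantile normalization, 0.0804 under median centring and 0.0735 in the deposited table, and ran from -0.27 (without CT18 mouse 15) to 0.334 (without CT18 mouse 14) when 1 library was left out, above 0 also without CT6 mouse 5 or 7. That of Npas4, 0.20, ran from -0.154 (without CT6 mouse 5) to 0.466 (without CT6 mouse 6), below 0 also without CT18 mouse 15 (-0.0825). The cause was not tested. The other 210 differences of members at CT18 against CT6 under these settings kept their sign. Without CT12 mouse 11 and CT0 mouse 3, chosen after seeing the data, the median percentile of the members' spread was 82.3, against 94.0 over 12 libraries, and 0 of 45 pairs passed, against 34, with fewer samples and permutations. The spreads at CT12 without mouse 11 and at CT0 without mouse 3 were likewise chosen after seeing the data. The deposited table gave 28 pairs, quantile normalization 31, and removal of slide means, also chosen after seeing the data, 35 over 12 libraries, with r for Fos of -0.267 to 0.264. Counts over all genes moved more: leaving out 1 library gave 0 to 120 genes in the F test, 0 to 68 for a rhythm, 1 to 80 for CT12 against CT0, 0 to 74 for CT12 against CT6, 1 to 300 for CT18 against CT6 and 0 to 1261 for CT18 against CT12, and other settings gave 2 to 55, 3 to 27, 0 to 13, 0 to 8, 3 to 68 and 0 to 170. With 3 mice per time, and Egr2 and Egr3 dim in CT12 mouse 11, changes of any size inside the intervals given remain possible. The mouse numbers in the labels differ between all times and pair no samples, so arrays were paired by slide only, in the fit with slide as a block.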
